A study of Mus musculus with 7 samples.

Results

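The genes described here make prostaglandins or receive their signal: the cyclooxygenases Ptgs1 and Ptgs2, the prostaglandin E synthases Ptges, Ptges2 and Ptges3, the prostaglandin D synthase Ptgds, and the E-type receptors Ptger1, Ptger2, Ptger3 and Ptger4. They were chosen by gene symbol. Of these 10 symbols, 9 had a row among the 18145 genes of the table, and all 9 passed the filter on low values; Ptger2 is not analysed here. The RNA came from cultured mouse neural stem cells (passage 1), in 2 libraries of genotype Tet-TMut (TMut), 2 of genotype Tet-TFoCa (TFoCa) and 3 of wild type (WT). The design text counts as many lines as there are libraries in each genotype and spells TFoCa as Tet-FoCa. Neither says which alleles these names stand for, how the lines were derived, or whether a line is 1 clone. The series title contrasts hydroxymethylated with formylated and carboxylated cytosine, the successive products of the TET enzymes, and the comparisons ask how each genotype differs in gene expression.

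Prostaglandins are lipid signals made from arachidonic acid, which phospholipases cut from membranes. A cyclooxygenase turns arachidonic acid into prostaglandin H, and a terminal synthase turns that into prostaglandin E, D, I or F. In brain, prostaglandin E made through cyclooxygenase 2 is best known for its part in fever, inflammation and synaptic activity, and prostaglandin D for its part in sleep. Ptgs1 is usually expressed steadily, whereas Ptgs2 is an inducible gene that inflammatory cytokines, growth factors and neuronal activity switch on.

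Per library, between 33340167 and 62545457 reads fell in genes. The values are normalized counts, that is, reads divided by a size factor of the library. Fold changes (log2) and standard errors were estimated by limma on log2(normalized count + 1) in 1 fit of all 7 libraries and 18134 genes. Calls required an adjusted p under 0.05 (Benjamini-Hochberg, over all genes). Of the neural stem cell markers, 14 of 15 listed symbols were measured, with summed normalized counts of 135000 to 161300 in TMut, 165930 to 180060 in TFoCa and 201420 to 209500 in WT. The 14 fibroblast and mesenchymal markers, Col1a1 and Col3a1 among them, summed to 329590 to 420820 in TMut, 464700 to 512720 in TFoCa and 178520 to 193790 in WT. Of these 14, 7 rose and 3 fell in TMut versus WT, Col1a1 among those that fell (-0.72 ± 0.23, adjusted p = 0.0424) and Col3a1 among those that rose (1.08 ± 0.14, adjusted p = 0.001), and 10 rose in TFoCa versus WT. The 8 pluripotency markers summed to 9058 to 32400 in TMut, 926 to 1240.3 in TFoCa and 9665 to 19673 in WT; all 8 fell in TFoCa versus WT and all 8 rose in TMut versus TFoCa. Of 14 microglia and macrophage markers only 3 were measured, and Aif1, Csf1r and Ptprc had no row; the 3 summed to 1510 to 1557 in TMut, 1257 to 1264 in TFoCa and 977 to 1238 in WT. In bulk RNA, fewer cells of a type and less RNA per cell cannot be told apart. The part that the makeup of the cultures has in the results below was not tested.

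Cyclooxygenase RNA was far more abundant in both mutant genotypes than in WT, mainly that of Ptgs2. Ptgs2 had 2807 and 2221 normalized counts in TMut, 1564 and 2058 in TFoCa, and 73.7, 94.4 and 136 in WT, in the order of the replicate numbers, as for all genes below. Every mutant library lay above every WT library, and both TMut libraries lay above both TFoCa libraries. The means were 2514 ± 414 in TMut, 1811 ± 349 in TFoCa and 101 ± 31.6 in WT (SD, n = 2, 2 and 3), which is 24.8 times the WT mean in TMut and 17.9 times in TFoCa. On the log2 scale Ptgs2 stood 4.65 ± 0.27 above WT in TMut and 4.18 ± 0.27 above WT in TFoCa. These differences put the family forward for description, so they are given without a test. With any single library left out, the difference stayed between 4.45 and 4.89 in TMut versus WT and between 3.97 and 4.41 in TFoCa versus WT. Between TMut and TFoCa, Ptgs2 differed by 0.48 ± 0.29 (adjusted p = 0.239).

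Ptgs1, the other cyclooxygenase, was lower in level than Ptgs2 but followed the same order of genotypes. It had 212 and 191 normalized counts in TMut, 176 and 86.4 in TFoCa, and 32.2, 29.2 and 39.1 in WT. All mutant libraries exceeded all WT libraries, and TFoCa replicate 2 was the lowest of the mutants. Ptgs1 rose by 2.56 ± 0.36 log2 units in TMut versus WT (adjusted p = 0.0015) and by 1.86 ± 0.36 in TFoCa versus WT (adjusted p = 0.022). The call in TFoCa ended without TFoCa replicate 1 (1.35, adjusted p = 0.0609), any 1 WT replicate (adjusted p = 0.0703, 0.0815 and 0.0593 without replicates 1, 2 and 3). Between TMut and TFoCa the log2 difference of 0.70 ± 0.40 was not called (adjusted p = 0.205), and it was called without TFoCa replicate 1 (1.21, adjusted p = 0.0492).

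**Figure D1:**
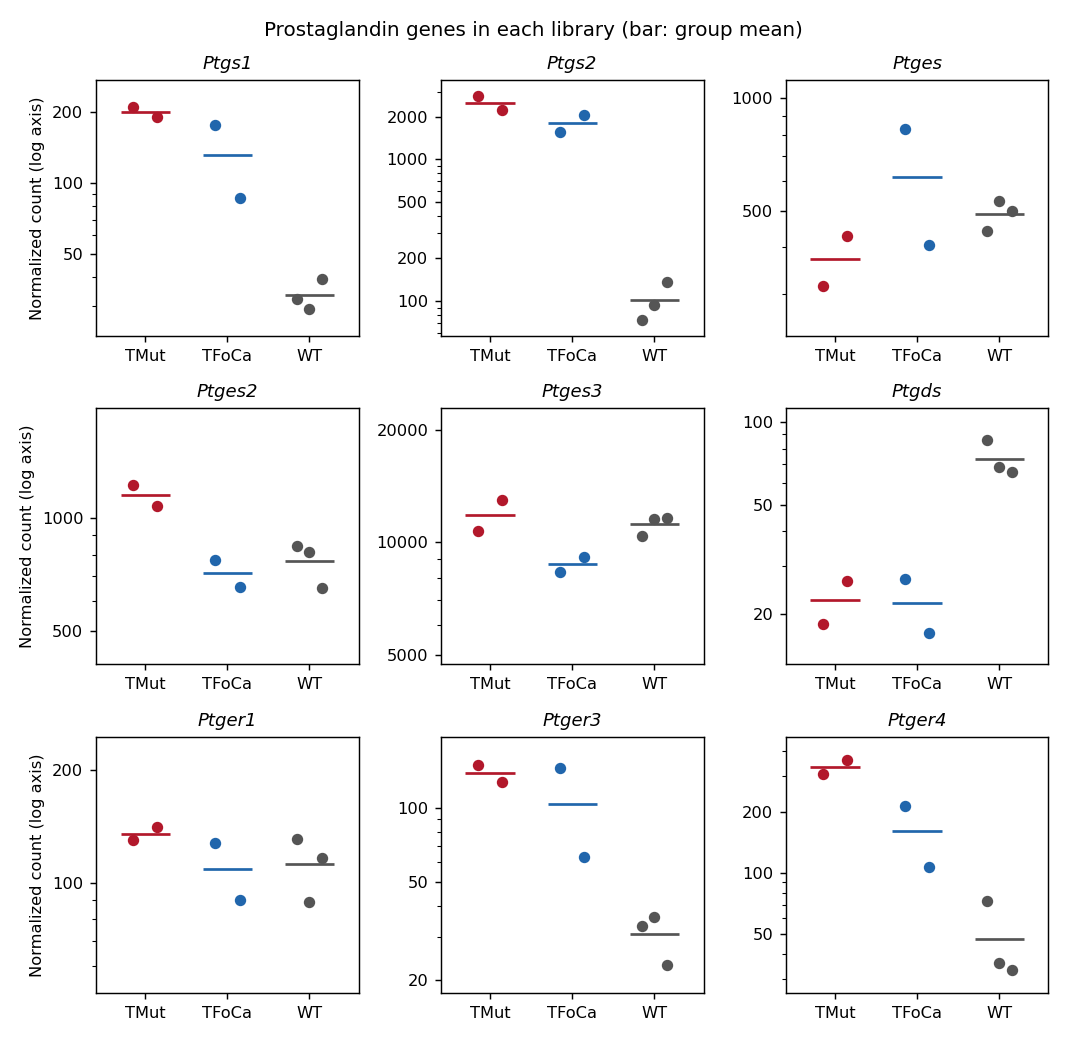
Normalized counts (log axes, 1 per gene) of the 9 measured genes; each point is a library and each bar a group mean, with TMut, TFoCa and WT from left to right. Ptgs1, Ptgs2, Ptger3 and Ptger4 lie higher in every mutant library than in any WT library, Ptgds lies lower, and the WT libraries of Ptgs2 stay between 73.7 and 136.

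Levels of different genes were compared per kilobase of annotated exon. On that scale Ptgs2 made up 91.8% and 90.8% of the summed cyclooxygenase level in TMut, 88.3% and 95.3% in TFoCa, and 66.0%, 73.3% and 74.6% in WT. The Ptgs2 level per kilobase was 11.2 and 9.87 times that of Ptgs1 in TMut, 7.53 and 20.2 times in TFoCa, and 1.94, 2.75 and 2.94 times in WT. The summed cyclooxygenase level was 601 ± 94.3 normalized counts per kilobase in TMut, 429 ± 59.9 in TFoCa and 30.7 ± 8.0 in WT (SD, n = 2, 2 and 3). Among the 9 genes, Ptgs2 stood directly behind Ptges3 per kilobase in every TMut and TFoCa library. In WT it stood behind Ptges3, Ptges2, Ptges and Ptgds, at 22.1 ± 6.9 normalized counts per kilobase, within the spread of Ptger1 at 20.5 ± 3.9.

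**Figure D2:**
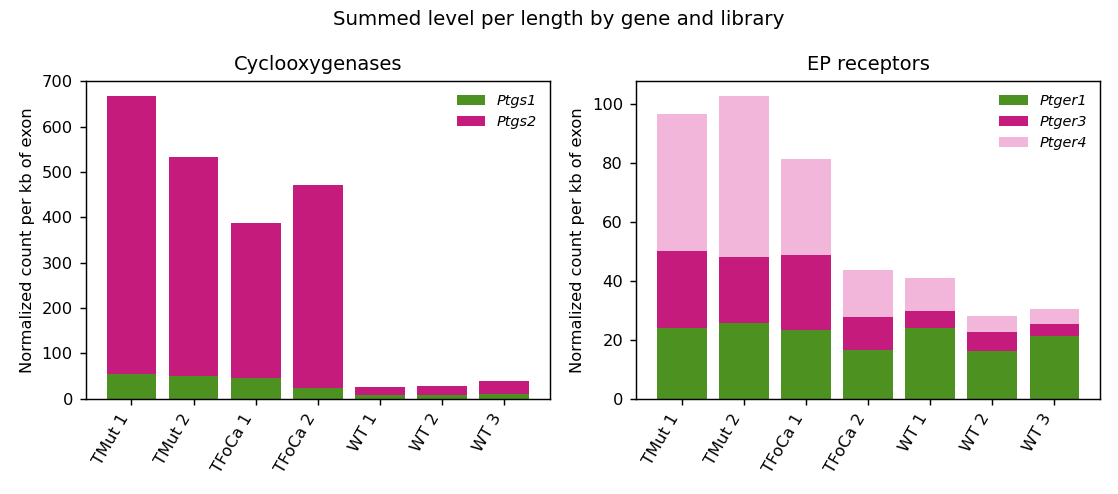
Normalized counts per kilobase of exon, stacked by gene, for the cyclooxygenases (left) and the E-type receptors (right), with 1 bar per library in the order TMut, TFoCa, WT. The cyclooxygenase bars reach 667, 534, 387 and 472 in the mutant libraries and stay between 24.4 and 39.7 in WT; the receptor bar of TFoCa replicate 2, at 43.7, is close to that of WT replicate 1, at 40.8.

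The start regions of the genes called in both mutant genotypes, and that of Ptgs2, are shown because they hold the letters at which cytosine modification could be read. Each window runs from 250 bases before to 50 bases after the RefSeq start in build GRCm38.p6, which is not the build of the counts (mm39), and 9 of the 10 symbols had one, all but Ptger1. Capitals mark matches on either strand to 7 short motifs. CACGTG is the E-box bound by basic helix-loop-helix factors, and TGACG is the core of the cAMP response element (CRE). The palindrome TTGCGCAA is bound by C/EBP factors, which respond to inflammation, and TGANTCA is the AP-1 site of Fos and Jun proteins. The letters GGGCGG form the GC box of Sp1-like factors. Core promoters often hold TATAAA, which binds the TATA-binding protein, and the box CCAAT is bound by the NF-Y complex. The windows are chr1:150099781-150100080 (plus strand) for Ptgs2, chr2:36230176-36230475 (plus strand) for Ptgs1, chr15:5244138-5244437 (minus strand) for Ptger4 and chr2:25469700-25469999 (minus strand) for Ptgds.
Ptgs2: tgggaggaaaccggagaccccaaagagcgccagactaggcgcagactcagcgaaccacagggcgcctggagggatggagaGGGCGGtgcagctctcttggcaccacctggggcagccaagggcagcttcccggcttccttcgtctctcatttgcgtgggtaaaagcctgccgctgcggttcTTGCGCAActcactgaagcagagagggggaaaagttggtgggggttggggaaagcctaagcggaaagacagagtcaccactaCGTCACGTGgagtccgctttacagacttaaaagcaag
Ptgs1: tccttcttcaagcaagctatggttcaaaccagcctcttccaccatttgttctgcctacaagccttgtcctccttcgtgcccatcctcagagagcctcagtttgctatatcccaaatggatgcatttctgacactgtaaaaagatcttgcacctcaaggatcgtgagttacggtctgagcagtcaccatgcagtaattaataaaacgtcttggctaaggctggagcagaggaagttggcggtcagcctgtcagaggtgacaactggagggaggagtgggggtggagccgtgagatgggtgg
Ptger4: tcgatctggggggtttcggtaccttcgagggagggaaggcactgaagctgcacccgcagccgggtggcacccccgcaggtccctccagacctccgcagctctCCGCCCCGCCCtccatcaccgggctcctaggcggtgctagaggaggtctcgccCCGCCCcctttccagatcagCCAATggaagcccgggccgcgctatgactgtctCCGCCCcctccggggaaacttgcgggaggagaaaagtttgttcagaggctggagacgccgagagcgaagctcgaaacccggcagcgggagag
Ptgds: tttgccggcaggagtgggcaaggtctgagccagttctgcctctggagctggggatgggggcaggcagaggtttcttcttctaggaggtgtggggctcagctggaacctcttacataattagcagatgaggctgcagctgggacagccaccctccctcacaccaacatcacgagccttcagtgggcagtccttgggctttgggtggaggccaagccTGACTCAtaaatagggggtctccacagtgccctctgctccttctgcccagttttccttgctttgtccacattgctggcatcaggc
The Ptgs2 window holds a GC box starting at position -170 and a C/EBP palindrome at position -69. It also holds a CRE core at position 14 that shares bases with an E-box at position 17, counted with the start as 1 and no 0. Of 32544 windows in the RefSeq table, 0.184% hold that palindrome, 20.9% a CRE core and 7.17% that E-box. The Ptgs1 window holds none of these motifs, the Ptger4 window holds GC boxes, which 35.9% of windows have, and a CCAAT (37.4%), and the Ptgds window holds an AP-1 match (7.79%). CpG pairs numbered 16 in the window of Ptgs2, 6 in that of Ptgs1, 25 in that of Ptger4, 27 in that of Ptger3 and 2 in that of Ptgds, where the median window had 7. The window of Ptges2, which rose in TMut, had 18. Windows of the genes that rose lay above the median, except that of Ptgs1, which was close to it (43.2% of windows had fewer). The windows of Ptges and Ptges3, which were not called against WT, also lay above it, with 10 and 46. A number above the median thus did not set the genes that rose apart. The window of Ptgds, which fell, lay under the median (14% had fewer). No match says that a factor binds, and methylation was not measured in these files.

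Around Ptgs2, the divergent noncoding gene next to it and the phospholipase gene beyond that were also higher in the mutants. Ptgs2os is a noncoding gene whose start window overlaps that of Ptgs2 on the opposite strand. It had 21.9 and 18.01 normalized counts in TMut, 17.2 and 23.1 in TFoCa, and 1.57, 1.90 and 6.90 in WT. It was low everywhere, and all mutant libraries lay above all WT libraries. It passed the filter on low values only through the mutant libraries, so no test of it against WT is given. The nearest protein-coding gene on the other side of Ptgs2os is Pla2g4a, which encodes the cytosolic phospholipase that releases arachidonic acid. Pla2g4a had 487 and 363 normalized counts in TMut, 509.6 and 523 in TFoCa, and 109.8, 87.5 and 104 in WT. It rose by 2.06 ± 0.22 in TMut versus WT (adjusted p = 0.00043) and by 2.36 ± 0.22 in TFoCa versus WT (adjusted p = 0.0024). Odr4 and Tpr, the measured protein-coding genes on the far side of Ptgs2, had log2 differences of -0.05 ± 0.18 and 0.21 ± 0.16 in TMut versus WT and of 0.35 ± 0.18 and 0.10 ± 0.16 in TFoCa versus WT, none of them called. Ptgs2os, Odr4 and Tpr were named for their position, after their values had been seen.

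**Figure D3:**
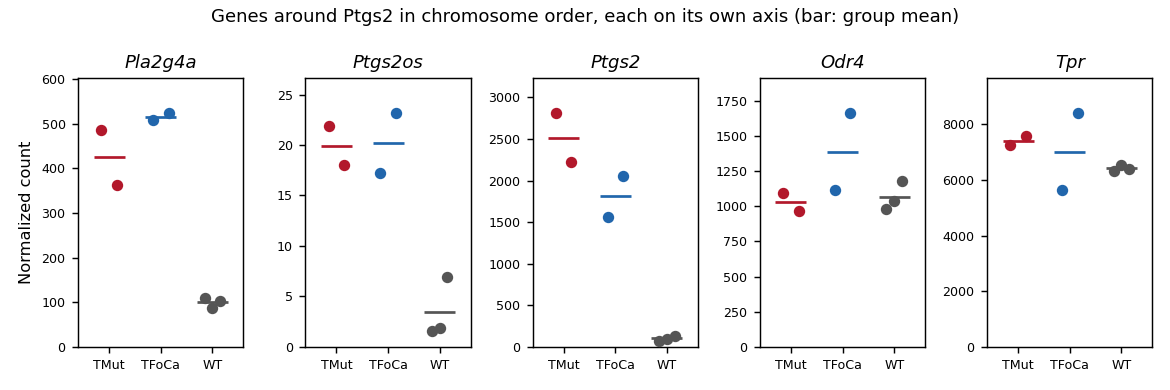
Normalized counts (linear axes from 0, 1 per gene) of the measured genes around Ptgs2 in chromosome order, pseudogenes left out; points are libraries and bars group means, with TMut, TFoCa and WT from left to right. Pla2g4a, Ptgs2os and Ptgs2 are higher in every mutant library than in WT, whereas groups overlap for Odr4. For Tpr, both TMut libraries lie above the WT libraries and the TFoCa libraries lie on either side of them.

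The prostaglandin E synthases differed less from WT than the cyclooxygenases, with no log2 difference from WT beyond 0.59 in size. Ptges, the inducible microsomal synthase that usually works with Ptgs2, had 314 and 429 normalized counts in TMut, 827 and 407 in TFoCa, and 441, 532 and 500.4 in WT. The TMut libraries lay just under the WT libraries, and the TFoCa libraries lay on either side of them. Its log2 differences were -0.41 ± 0.30 in TMut versus WT (adjusted p = 0.307) and 0.24 ± 0.30 in TFoCa versus WT (adjusted p = 0.661). Without TFoCa replicate 1 the TFoCa difference was -0.27. Between TMut and TFoCa, Ptges differed by -0.66 ± 0.33 (adjusted p = 0.154), and by -1.17 without TFoCa replicate 2 (adjusted p = 0.0138).

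Ptges2, a membrane-associated synthase, had 1230.2 and 1082 normalized counts in TMut, 776 and 654 in TFoCa, and 843, 814 and 651 in WT. Both TMut libraries stood above all others. Ptges2 rose by 0.59 ± 0.16 in TMut versus WT (adjusted p = 0.023) and by 0.70 ± 0.18 in TMut versus TFoCa (adjusted p = 0.0202), and it was not called in TFoCa versus WT (-0.10 ± 0.16, adjusted p = 0.741). The call against WT ended without TMut replicate 1 (adjusted p = 0.112), TMut replicate 2 (adjusted p = 0.0554), WT replicate 2 (adjusted p = 0.0526) or WT replicate 3 (adjusted p = 0.0746). The call against TFoCa ended without TMut replicate 1 (adjusted p = 0.0805), TMut replicate 2 (adjusted p = 0.0533) or TFoCa replicate 2 (adjusted p = 0.0686), and when TMut and TFoCa were fitted without WT (adjusted p = 0.0556).

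Ptges3, a cytosolic synthase that is also the HSP90 co-chaperone p23, had 10694 and 12942 normalized counts in TMut, 8305 and 9152 in TFoCa, and 10392, 11514 and 11637 in WT. The TFoCa libraries were the lowest. Ptges3 rose by 0.43 ± 0.13 in TMut versus TFoCa (adjusted p = 0.0323) and was not called in TMut versus WT (0.08 ± 0.12, adjusted p = 0.637) or TFoCa versus WT (-0.36 ± 0.12, adjusted p = 0.0982). The TMut versus TFoCa call ended without TMut replicate 2 (0.29, adjusted p = 0.183), TFoCa replicate 1 (adjusted p = 0.0978), WT replicate 2 (adjusted p = 0.0631) or WT replicate 3 (adjusted p = 0.0589). It also ended with quantile normalization (adjusted p = 0.0659) and when TMut and TFoCa were fitted without WT (adjusted p = 0.0982). Per kilobase, Ptges3 supplied 94.2% ± 0.73 of the summed synthase level in TMut, 92.9% ± 2.5 in TFoCa and 94.8% ± 0.50 in WT (SD, n = 2, 2 and 3), so that Ptges and Ptges2 were minor in all 3 genotypes.

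Ptgds, the lipocalin-type prostaglandin D synthase of meninges, choroid plexus and oligodendrocytes, fell in both mutant genotypes. It had 18.4 and 26.4 normalized counts in TMut, 26.8 and 17.0 in TFoCa, and 86.3, 68.5 and 65.6 in WT, from 16, 22, 28, 14, 110, 108 and 57 reads. The mutant genotypes overlapped each other and both lay under WT. Ptgds fell by 1.68 ± 0.39 in TMut versus WT (adjusted p = 0.0116) and by 1.72 ± 0.39 in TFoCa versus WT (adjusted p = 0.0343), and the difference between TMut and TFoCa was 0.04 ± 0.42 (adjusted p = 0.948). The call in TMut ended without TMut replicate 1 (-1.43, adjusted p = 0.0533). The call in TFoCa ended without TFoCa replicate 2 (-1.41, adjusted p = 0.0993), any 1 WT replicate (adjusted p = 0.123, 0.114 and 0.101 without replicates 1, 2 and 3). The oligodendrocyte markers summed to 1670 to 2043 in TMut, 2807 to 2914 in TFoCa and 2878 to 3274 in WT. Of the 7 measured, 1 rose and 5 fell in TMut versus WT, and 1 fell in TFoCa versus WT. Cnp was the marker that rose (1.08 ± 0.17, adjusted p = 0.0023), with 1145 and 1110.5 normalized counts in TMut. The choroid plexus markers summed to 1776 to 2043 in TMut, 3577 to 4993 in TFoCa and 5358 to 6047 in WT. Most of the choroid plexus sum came from Otx2, which fell in TMut versus WT (-2.07 ± 0.15, adjusted p = 0.00015). Ttr also fell in TMut versus WT (-3.38 ± 0.73, adjusted p = 0.009), whereas Clic6 rose in TFoCa versus WT (0.84 ± 0.21, adjusted p = 0.0471). The leptomeningeal markers summed to 14188 to 14507 in TMut, 20013 to 23312 in TFoCa and 13084 to 14657 in WT. Most of that sum came from Igf2. Of the 9, 2 rose and 3 fell in TMut versus WT, and 3 rose and 1 fell in TFoCa versus WT. In TMut versus WT, Tbx18 fell (-3.56 ± 0.34, adjusted p = 0.00033) and Ogn rose (2.80 ± 0.38, adjusted p = 0.0013). Slc22a6 had 2.30 and 0 normalized counts in TMut, 1.92 and 2.43 in TFoCa, and 59.6, 49.4 and 36.8 in WT. The part of all these markers in the fall of Ptgds was not tested.

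Among the E-type receptors, Ptger4 and Ptger3 were higher in the mutants and Ptger1 was not called. Ptger4 encodes EP4, which couples to stimulatory G protein and raises cAMP. It had 309 and 363 normalized counts in TMut, 216 and 107 in TFoCa, and 73.0, 36.1 and 33.4 in WT. The 3 genotypes did not overlap, with TMut highest and WT lowest. Ptger4 rose by 2.88 ± 0.44 in TMut versus WT (adjusted p = 0.0019) and by 1.75 ± 0.44 in TFoCa versus WT (adjusted p = 0.0486), and the difference of 1.13 ± 0.48 between TMut and TFoCa was not called (adjusted p = 0.101). The TFoCa call sat at the threshold. It ended without TFoCa replicate 1 (1.25, adjusted p = 0.151), WT replicate 2 or WT replicate 3 (adjusted p = 0.142 in both), or TMut replicate 1 or 2 (adjusted p = 0.0614 and 0.0619), with quantile normalization (adjusted p = 0.0642) and when TFoCa and WT were fitted without TMut (adjusted p = 0.0666). A short stretch of Ptger4, 1.23% of its exon bases, overlaps Ttc33 on the opposite strand in the GENCODE M21 annotation, and 15.3% overlaps Gm15937, which had no row.

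Ptger3 encodes EP3, which couples mainly to inhibitory G protein and lowers cAMP. It had 149.7 and 127 normalized counts in TMut, 145 and 63.3 in TFoCa, and 32.9, 36.1 and 23.0 in WT. Every mutant library exceeded WT, and TFoCa replicate 1 lay within the TMut range. Ptger3 rose by 2.16 ± 0.42 in TMut versus WT (adjusted p = 0.0058), whereas the difference of 1.63 ± 0.42 in TFoCa versus WT was not called (adjusted p = 0.0534). It was called by edgeR (adjusted p = 0.0392) and DESeq2 (adjusted p = 0.0027), and by limma without TFoCa replicate 2 (2.22, adjusted p = 0.0222). Between TMut and TFoCa it differed by 0.52 ± 0.46 (adjusted p = 0.406), and by -0.07 without TFoCa replicate 2.

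Ptger1 encodes EP1, which raises intracellular calcium. It had 130.2 and 140.5 normalized counts in TMut, 127 and 90.1 in TFoCa, and 131, 88.7 and 116 in WT. Both TMut libraries lay above both TFoCa libraries, and each of these genotypes overlapped WT. The log2 differences were 0.29 ± 0.29 in TMut versus WT (adjusted p = 0.46) and -0.04 ± 0.29 in TFoCa versus WT (adjusted p = 0.946). Whether counting used the strand is not given in the sources used here, so the Ptger1 values may hold reads from the opposite strand and are uncertain.

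Per kilobase, Ptger4 made up 48.1% and 53.1% of the summed level of the 3 measured receptors in TMut, 39.9% and 36.8% in TFoCa, and 26.9%, 19.4% and 16.5% in WT. Ptger1 made up 24.7% and 25.1% in TMut, 28.7% and 37.7% in TFoCa, and 58.9%, 58.0% and 70.1% in WT. The largest share was thus that of Ptger4 in TMut and of Ptger1 in WT, and in TFoCa Ptger4 led in replicate 1 and Ptger1, by a narrow margin, in replicate 2. The summed receptor level was 99.6 ± 4.3 normalized counts per kilobase in TMut, 62.5 ± 26.5 in TFoCa and 33.1 ± 6.8 in WT (SD, n = 2, 2 and 3). These shares rest on the uncertain Ptger1 values.

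Of the 8 measured genes other than Ptgs2, 4 rose (Ptgs1, Ptges2, Ptger3, Ptger4), 1 fell (Ptgds) and 3 were not called in TMut versus WT, where 38.8% of all genes tested were called, 18.4% higher and 20.4% lower. In TFoCa versus WT, 2 rose (Ptgs1, Ptger4), 1 fell (Ptgds) and 5 were not called, where 8.77% of all genes were called, 5.25% higher and 3.52% lower. In TMut versus TFoCa, 2 rose (Ptges2, Ptges3) and 6 were not called, where 35.8% of all genes were called. Their median log2 difference was 0.44 in TMut versus WT, 0.10 in TFoCa versus WT and 0.48 in TMut versus TFoCa, against 0.00, -0.02 and -0.00 over all genes tested. Since the genes were put forward with results of these data in view, nothing is read from these shares. Both comparisons with WT share the same 3 WT libraries. With 1 library left out, the genes called in TMut versus WT numbered 3 without TMut replicate 1 and 4 or 5 otherwise. Those in TFoCa versus WT numbered 1 without TFoCa replicate 1 or WT replicate 1, 2 without TMut replicate 1 or 2, and 0 by limma without WT replicate 2 or 3, where 4 of the 8 had an unadjusted p under 0.05. Those in TMut versus TFoCa numbered 1 without TMut replicate 1, WT replicate 2 or WT replicate 3, and 0 by limma without TMut replicate 2, where 1 had an unadjusted p under 0.05. With all libraries, edgeR, DESeq2 and voom called 5 genes each in TMut versus WT, 4, 4 and 3 in TFoCa versus WT, and 2 each in TMut versus TFoCa.

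**Figure D4:**
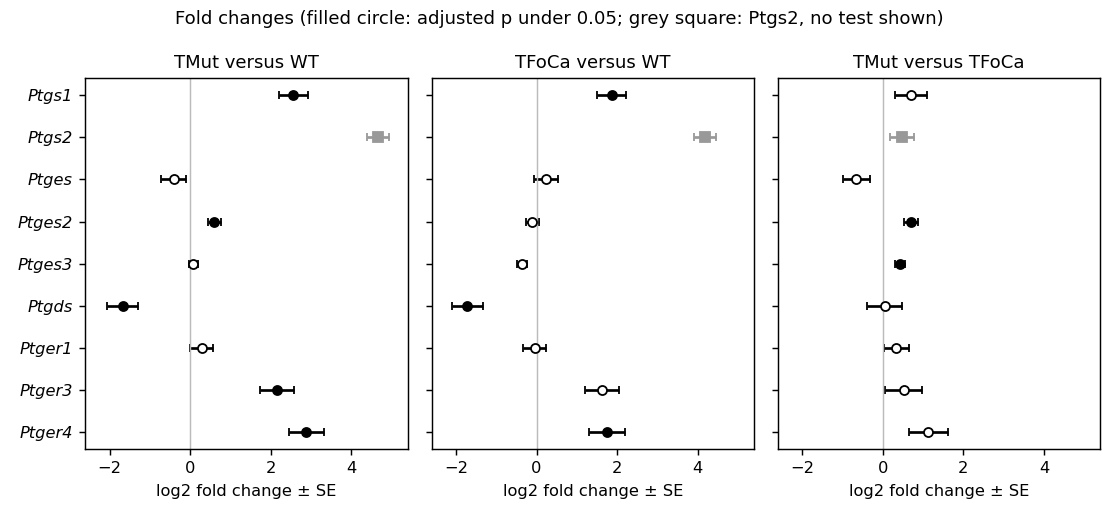
Log2 fold changes (points) with standard errors (bars) of the 9 measured genes in the 3 comparisons; filled circles had an adjusted p under 0.05, open circles did not, and Ptgs2 is a grey square, drawn without a test. Ptgs2 lies at 4.65 and 4.18 against WT, and Ptgds at -1.68 and -1.72.

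Other genes of prostaglandin and related lipid pathways, and of the signalling before and after them, were taken by function as 10 lists of 153 measured genes other than the 9 above; Pla2g4a is one of them. In TMut versus WT, 48 rose and 24 fell (31.4% and 15.7%), with a median log2 difference of 0.24. In TFoCa versus WT, 24 rose and 3 fell (15.7% and 1.96%), with a median of 0.14. In TMut versus TFoCa, 27 rose and 28 fell (17.6% and 18.3%), with a median of 0.14. Genes called in TMut versus WT numbered 72 in all, and 47 without TMut replicate 2; those in TFoCa versus WT numbered 27, and 13, 10 and 11 without WT replicates 1, 2 and 3; those in TMut versus TFoCa numbered 55, and 26 without TMut replicate 2. The counts and medians of these 153 genes, and of the lists below, include some that passed the filter on low values only through the mutant libraries. Ptgfr, Mgst2 and Il1rl1 are such genes, and the last 2 are named below for that reason. The shares over all genes are those given above. The text names the genes with the smallest adjusted p of each list, 2 per list against WT and the first between the mutants.

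Arachidonic acid release was represented by 19 measured genes, of which 3 rose, 2 fell and 14 were not called in TMut versus WT; in TFoCa versus WT only Pla2g4a was called. Plaat3, a phospholipase A and acyltransferase, averaged 465 normalized counts in TMut, 169 in TFoCa and 112 in WT. It rose by 2.05 ± 0.24 in TMut versus WT (adjusted p = 0.00066) and by 1.44 ± 0.26 in TMut versus TFoCa (adjusted p = 0.0061). Pla2g5, a secreted phospholipase, averaged 9.14 normalized counts in TFoCa and 33.2 in WT and was not called (adjusted p = 0.0576), except by DESeq2 (adjusted p = 0.0374) and without TFoCa replicate 1 (-2.53, adjusted p = 0.0292).

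Of the 5 other prostanoid synthase genes, Hpgds fell in TMut and Ptgis rose in TFoCa. Hpgds, the haematopoietic prostaglandin D synthase, averaged 10.6 normalized counts in TMut, 50.4 in TFoCa and 123 in WT. It fell by 3.42 ± 0.42 log2 units in TMut versus WT (adjusted p = 0.00079), so that both prostaglandin D synthases fell in that genotype; in TFoCa versus WT it stood at -1.35 ± 0.42 (adjusted p = 0.0851) and was called without TFoCa replicate 2 (adjusted p = 0.0442). Ptgis, the prostacyclin synthase, averaged 458 in TMut, 858 in TFoCa and 373 in WT, and rose by 1.21 ± 0.25 in TFoCa versus WT (adjusted p = 0.0262). That call ended without TFoCa replicate 2 (adjusted p = 0.0925), WT replicate 1 (adjusted p = 0.0797) or WT replicate 2 (adjusted p = 0.0941). Cbr1, a carbonyl reductase, had a difference of 0.27 ± 0.10 in TMut versus WT (adjusted p = 0.0663). Akr1b3, an aldose reductase that can make prostaglandin F, averaged 5175 in TMut and 2187 in TFoCa and rose by 1.23 ± 0.24 between them (adjusted p = 0.0077).

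Of 8 breakdown and transport genes, 4 rose and 4 were not called in TMut versus WT. Ptgr1, a prostaglandin reductase, averaged 1574 normalized counts in TMut, 728 in TFoCa and 529 in WT, and rose by 1.57 ± 0.15 in TMut versus WT (adjusted p = 0.00033) and by 1.12 ± 0.17 in TMut versus TFoCa (adjusted p = 0.0033). Zadh2, another prostaglandin reductase, rose by 0.79 ± 0.10 in TMut versus WT (adjusted p = 0.00095). In TFoCa versus WT only Abcc1, an efflux pump of leukotriene C and other conjugates, was called (0.55 ± 0.12, adjusted p = 0.0278), and Ptgr1 was not (0.46 ± 0.15, adjusted p = 0.108). The Abcc1 call ended without TFoCa replicate 2 (adjusted p = 0.0779), any 1 WT replicate (adjusted p = 0.0877, 0.0707 and 0.102 without replicates 1, 2 and 3).

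Of the 5 genes for receptors of other prostanoids and their partners, 1 rose and 4 were not called in TMut versus WT. In TFoCa versus WT the only call was that of Ptgfr, which is not read as a result for the reason given below. Ptgir, the prostacyclin receptor, averaged 98.3 normalized counts in TMut, 119 in TFoCa and 51.1 in WT and just missed the threshold against WT in both (0.94 ± 0.32, adjusted p = 0.0512 in TMut; 1.19 ± 0.32, adjusted p = 0.0609 in TFoCa). In TMut it was called without TFoCa replicate 1 (adjusted p = 0.0365) or TFoCa replicate 2 (adjusted p = 0.0388), and by edgeR (adjusted p = 0.045), DESeq2 (adjusted p = 0.0324) and voom (adjusted p = 0.0422). Ptgfr, the prostaglandin F receptor, averaged 48.2 in TFoCa and 8.71 in WT, and 1 of the WT libraries reached the filter minimum of 10. Ptgfr passed the filter only through the mutant libraries, so no test of it against WT is given. Its log2 difference was 2.35 ± 0.57 in TFoCa versus WT and ran from 1.815 to 2.891 with 1 library left out. Ppard, a nuclear receptor, averaged 3269 in TMut and 2476 in WT and rose by 0.39 ± 0.13 in TMut versus WT (adjusted p = 0.0431), a call that ended without TMut replicate 2 (0.24, adjusted p = 0.268), any 1 WT replicate (adjusted p = 0.0691, 0.104 and 0.129 without replicates 1, 2 and 3). Ptgfrn, a membrane protein that binds the prostaglandin F receptor, averaged 4978 in TMut and 7839 in TFoCa and was not called between them (adjusted p = 0.0693), except without TFoCa replicate 2 (adjusted p = 0.0055).

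Of 13 lipoxygenase, leukotriene and epoxide hydrolase genes, 8 rose and 5 were not called in TMut versus WT, with a median of 1.71. The list includes genes that passed the filter on low values only through the mutant libraries. Mgst2, with 4.71, 1.27 and 0 normalized counts in WT, is such a gene and is among the 8. Neither the count nor the median is therefore read as a result. Alox12, the platelet-type 12-lipoxygenase, averaged 302 normalized counts in TMut, 26.2 in TFoCa and 20.0 in WT; it rose by 3.85 ± 0.41 in TMut versus WT (adjusted p = 0.000455) and by 3.55 ± 0.45 in TMut versus TFoCa (adjusted p = 0.0022). Ephx1, the microsomal epoxide hydrolase, averaged 3219 in TMut, 2069 in TFoCa and 817 in WT and rose by 1.99 ± 0.17 in TMut (adjusted p = 0.00022) and by 1.36 ± 0.17 in TFoCa (adjusted p = 0.0056) versus WT. Ephx2, the soluble epoxide hydrolase, averaged 112 in TFoCa and 438 in WT and fell by 2.00 ± 0.48 (adjusted p = 0.0419). That call ended without TFoCa replicate 1 (adjusted p = 0.126), WT replicate 2 (adjusted p = 0.125) or WT replicate 3 (adjusted p = 0.126); edgeR (adjusted p = 0.0528) and voom (adjusted p = 0.0679) did not call it.

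The 37 genes of E-type receptor and cAMP signalling included 6 that rose, 12 that fell and 19 not called in TMut versus WT, with a median of -0.06. Prkar2b, a regulatory subunit of protein kinase A, averaged 988 in TMut and 2717 in WT and fell by 1.46 ± 0.16 (adjusted p = 0.00057). Creb1, the transcription factor that kinase phosphorylates, averaged 2137 in TMut and 3925 in WT and fell by 0.88 ± 0.14 (adjusted p = 0.0021). In TFoCa versus WT, 5 rose and 32 were not called; Adcy4 and Adcy3, both adenylate cyclases, rose by 2.29 ± 0.36 (adjusted p = 0.011) and 0.86 ± 0.15 (adjusted p = 0.0156). The Adcy3 call ended without WT replicate 2 (adjusted p = 0.0661) or WT replicate 3 (adjusted p = 0.0626), and the Adcy4 call without WT replicate 2 (adjusted p = 0.0521). In TMut versus TFoCa, 15 fell and 22 were not called, led by Adcy7, another cyclase, with 253 normalized counts in TMut and 1465 in TFoCa (-2.57 ± 0.28, adjusted p = 0.0017), and Grk3, a receptor kinase, with 460 in TMut and 1519 in TFoCa (-1.73 ± 0.19, adjusted p = 0.0017).

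Of 15 cAMP and CREB target genes, 4 rose, 4 fell and 7 were not called in TMut versus WT, and 3 rose and 12 were not called in TFoCa versus WT. Areg, which encodes the growth factor amphiregulin, averaged 409 in TMut, 221 in TFoCa and 17.9 in WT, and rose by 4.48 ± 0.37 in TMut (adjusted p = 2e-04) and by 3.53 ± 0.37 in TFoCa (adjusted p = 0.0032) versus WT. Vgf, a neuropeptide precursor, rose by 1.89 ± 0.26 in TMut versus WT (adjusted p = 0.0013), and Bdnf, a neurotrophin, by 1.76 ± 0.29 in TFoCa versus WT (adjusted p = 0.0128). Ppargc1a, a transcriptional coactivator, averaged 14.0 in TMut and 91.7 in TFoCa and fell by 2.79 ± 0.53 (adjusted p = 0.0069).

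Of 34 measured cytokines, receptors and NF-kB and C/EBP genes that can act upstream of Ptgs2, 15 rose, 2 fell and 17 were not called in TMut versus WT, and 8 rose and 26 were not called in TFoCa versus WT. Il33, a cytokine gene, averaged 2069 normalized counts in TMut, 1409 in TFoCa and 168 in WT, and rose by 3.60 ± 0.32 in TMut (adjusted p = 0.00024) and by 3.05 ± 0.32 in TFoCa (adjusted p = 0.0032) versus WT. Tnfrsf1a, a tumour necrosis factor receptor, averaged 6083 in TMut and 2575 in WT and rose by 1.24 ± 0.11 (adjusted p = 0.00022). Nfkb2, an NF-kB subunit, averaged 1479.5 in TFoCa and 864 in WT and rose by 0.78 ± 0.12 (adjusted p = 0.0101). Irak2, a kinase of interleukin 1 receptor signalling, averaged 555 in TMut and 138 in TFoCa and rose by 2.01 ± 0.30 (adjusted p = 0.0033). Il1a, Il1b, Il6 and Tnf, the cytokines best known for inducing Ptgs2, had no row in the table.

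Of 14 genes for proteins that bind AU-rich RNA or otherwise affect the stability or translation of Ptgs2 RNA, 4 rose, 4 fell and 6 were not called in TMut versus WT. Zfp36, which promotes decay of such RNA, averaged 2357 in TMut and 600.2 in WT and rose by 1.93 ± 0.24 (adjusted p = 0.0008). Celf2, an RNA-binding protein, averaged 1546 in TMut and 5368 in WT and fell by 1.84 ± 0.19 (adjusted p = 0.00041). In TFoCa versus WT, 1 rose, 2 fell and 11 were not called; Zfp36l2, a relative of Zfp36, rose by 0.77 ± 0.13 (adjusted p = 0.0147), and Hnrnpd, another AU-rich RNA binder, fell by 0.83 ± 0.15 (adjusted p = 0.0157). The Zfp36l2 call ended without WT replicate 1 (adjusted p = 0.0502) or WT replicate 2 (adjusted p = 0.0532), and the Hnrnpd call without WT replicate 1 (adjusted p = 0.0531) or WT replicate 3 (adjusted p = 0.0608). Rbm3, a cold-inducible RNA-binding protein, averaged 10743 in TMut and 5849 in TFoCa and rose by 0.88 ± 0.10 (adjusted p = 0.0019).

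Of 7 glucocorticoid pathway genes, which can restrain arachidonic acid release and Ptgs2, 3 rose and 4 were not called in TMut versus WT, and 2 rose and 5 were not called in TFoCa versus WT. Anxa1, an inhibitor of cytosolic phospholipase A, averaged 21737 normalized counts in TMut, 3798 in TFoCa and 902 in WT. It rose by 4.59 ± 0.17 in TMut (adjusted p = 4.3e-05) and by 2.06 ± 0.17 in TFoCa (adjusted p = 0.0019) versus WT, and by 2.53 ± 0.18 in TMut versus TFoCa (adjusted p = 0.0012). Nr3c1, the glucocorticoid receptor gene, averaged 1689.8 in TMut, 1156 in TFoCa and 661 in WT and rose by 1.36 ± 0.16 in TMut (adjusted p = 0.00078) and by 0.80 ± 0.16 in TFoCa (adjusted p = 0.0258) versus WT. The TFoCa call of Nr3c1 ended without TFoCa replicate 1 (adjusted p = 0.0719), any 1 WT replicate (adjusted p = 0.0502, 0.0969 and 0.0913 without replicates 1, 2 and 3).

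**Figure D5:**
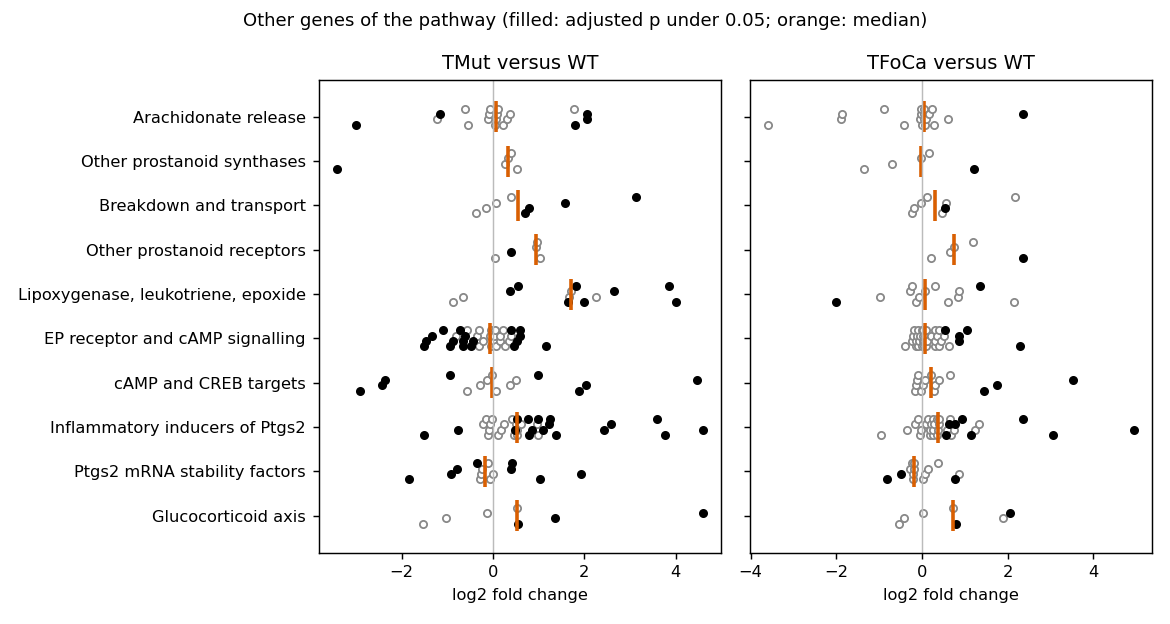
Log2 fold changes of the other pathway genes by list (points; filled with an adjusted p under 0.05, open otherwise) with the list's median (orange bar), in TMut versus WT (left) and TFoCa versus WT (right). The median of the lipoxygenase and leukotriene list lies at 1.71 on the left and 0.07 on the right. Genes that passed the filter only through the mutant libraries are included in the medians. Il1rl1, at 0 reads in all WT libraries, is drawn at its fitted value.

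Genes with a pattern like that of a member were sought for the 3 members with the widest range of group means, by the root mean square difference between log2 profiles over the 7 libraries, each profile centred on its own mean. Closest to Ptgs2 were Mgp, which encodes matrix Gla protein (0.33 log2 units), Areg (0.49), Ifi211 (0.52), Cbr2 (0.55) and Crym (0.56), against a median of 2.25 over all genes. Mgp had 6656 and 5313 normalized counts in TMut, 2211 and 3509 in TFoCa, and 116, 180.02 and 374 in WT. Closest to Ptger4 were Ccn1, a matricellular protein gene (0.25), Htra1 (0.27), Fli1 (0.29), Ctsw (0.29) and Chrm3 (0.32), against a median of 1.35. Among the closest to Ptgs1 were Rab38 (0.14), the adhesion molecule gene Alcam (0.16), the hyaluronan synthase gene Has2 (0.23) and Bmper (0.27), against a median of 1.22.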

How the data were processed

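The table holds gene counts of RNA sequencing libraries divided by a size factor, a normalized signal that the authors made with DESeq2. Per the submitters' processing notes, the build was mm39 and the tools were STAR 2.7.3a, Trim Galore 0.6.5, SAMtools, featureCounts and DESeq2; settings, strand and annotation are not given in the sources used here. Whole reads were recovered from the deposited values (100% within 0.001 read) for the alternatives with count models. Of values from 1 to 20 reads, 70.29% to 79.32% were even, so mates of a pair may have been counted separately, and count models may overstate precision.

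Genes with 10 or more normalized counts in at least 2 libraries (18134) were fitted by limma 3.58.1 (R 4.3.3) with an intensity trend and a pseudocount of 1, genotype being the only term (4 residual degrees of freedom). This fold-change scale understates changes of low genes. P values measure the spread between libraries, as many per genotype as the lines in the design text. The script was tested on simulated data. Alternatives were other pseudocounts, filters, normalizations and thresholds, robust eBayes, voom, edgeR 4.0.16, DESeq2 1.42.0, fits to 2 genotypes, a replicate block, and leaving out each library. Exon lengths and gene overlaps came from GENCODE M21 (GRCm38), and promoter sequences from RefSeq. Members, gene lists and naming rule were chosen with earlier results of these data known. The rule allows 3 genes per list and comparison; fewer are named. Marker genes given with values were chosen after these were seen. Some genes the rule names are not reported here.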

Additional observations from a re-analysis of the deposited data

How the results depend on the processing

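Of 1476 recomputed fold changes of named genes, 1366 kept direction and side of the threshold, 78 lost the call, 22 gained it and 10 changed sign; the cause was not tested.

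Replicate numbers did not pair libraries: deviations from group means of same-numbered libraries correlated by 0.0192 to 0.185. With the replicate block, 3 of the 8 prostaglandin genes other than Ptgs2 were called in TMut versus WT (against 5) and 0 by limma in TFoCa versus WT (against 3), where 5 had an unadjusted p under 0.05. The calls that ended in TMut were those of Ptges2 (adjusted p = 0.0791) and Ptgds (adjusted p = 0.051). Those that ended in TFoCa were Ptgs1 (adjusted p = 0.0673), Ptgds (adjusted p = 0.127) and Ptger4 (adjusted p = 0.126). With the block, called genes numbered 4620 of all tested in TMut versus WT and 555 in TFoCa versus WT, and 11 other pathway genes in TFoCa versus WT.

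At an adjusted p under 0.01, the prostaglandin genes called numbered 3, 0 and 0 in TMut versus WT, TFoCa versus WT and TMut versus TFoCa, all genes 4008, 342 and 2825 (against 7043, 1590 and 6491), and other pathway genes 5 in TFoCa versus WT and 24 in TMut versus TFoCa (against 27 and 55). DESeq2 called 2947 genes and 43 other pathway genes in TFoCa versus WT. Quantile normalization called 1 prostaglandin gene in TMut versus TFoCa (against 2), and the fit to those 2 genotypes called 0 by limma (3 at an unadjusted p under 0.05), with 36 other pathway genes and 3419 genes.

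Leaving out 1 library gave 3 to 5, 0 to 3 and 0 to 2 prostaglandin genes called in TMut versus WT, TFoCa versus WT and TMut versus TFoCa. Other pathway genes then numbered 47 to 77, 10 to 28 and 26 to 52, and all genes 4329 to 8127, 495 to 1768 and 3164 to 5940. The lowest counts of all genes came without TMut replicate 2, WT replicate 2 and TMut replicate 2.

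Sign changed only among differences that were not called. Under other settings, Ptges3 in TMut versus WT turned to -0.047 with quantile normalization and Ptger1 in TFoCa versus WT to 0.019 with voom. With 1 library left out, the TFoCa versus WT difference ran from -0.27 to 0.75 for Ptges, from -0.23 to 0.022 for Ptges2 and from -0.29 to 0.20 for Ptger1. The TMut versus WT difference of Ptges3 ran from -0.062 to 0.21. The TMut versus TFoCa difference ran from -0.27 to 0.36 for Ptgds and from -0.067 to 1.11 for Ptger3. Where 1 library of a genotype remained, it was taken to vary like the other groups. Counts as low as the 14 to 28 reads of Ptgds in the mutants limit the precision of its fold change.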
